A study of Danio rerio with 4 samples.

Results

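The genes described here encode parts of the fenestral diaphragm and of caveolae in endothelial cells, and they are plvapa (ENSDARG00000076972), plvapb (ENSDARG00000045003), cav1 (ENSDARG00000103747), cav2 (ENSDARG00000052000) and cavin1b (ENSDARG00000059362). They were picked by name, 5 of the 25432 genes in the count matrices, and were followed through the endothelial types of the embryo, brain capillary-like cells above all, and through the other sorted cells. In the RefSeq annotation of the GRCz12tu assembly, used only for neighbours, cav2 and cav1 are adjacent coding genes on chromosome 25, and plvapa, plvapb and cavin1b lie apart on chromosomes 2, 11 and 24.

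Caveolae are flask-shaped pits of the plasma membrane that carry plasma proteins across the endothelium and take up membrane tension. Caveolin-1 builds their coat, caveolin-2 assembles with it, and cavins such as cavin-1 cover the coat from the cytoplasmic side. PLVAP, known from mammals, forms the diaphragm that spans the openings of caveolae and of fenestrae, the pores of capillaries in endocrine glands, kidney and gut. In the mature brain of mice most capillaries hold back caveolar transport and lose PLVAP as the barrier closes, whereas the fenestrated capillaries of the choroid plexus and pituitary keep it.

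GFP-positive cells had been sorted from whole embryos at 3 days post fertilization (dpf) that carry Tg(kdrl:EGFP)zf531Tg as the labels spell it (the study's methods give the allele as s843), a line in which the promoter of the Vegf receptor gene kdrl marks endothelium. The 2 WT libraries had no further allele and the 2 flt1 mutant libraries came from the flt1ka604 strain, whose small deletion in an early exon truncates the Vegf decoy receptor Flt1. Each library was a pool of embryos run on the 10x Genomics single cell 3′ platform. Nothing says that the replicates came from separate clutches, so that p-values reach no further than these libraries. Between genotypes they measure the spread between libraries. Between classes, with the library as a block, they measure the spread of the class difference over libraries.

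The libraries held 16828951 to 33837917 unique molecular identifiers (UMIs) in 1190 to 3261 called cells, and 5191 of 7677 cells were kept. They formed 20 clusters, of which 3 with 1245 cells were endothelial, the rest being for the most part blood-lineage, epithelial-like, mesenchymal-like and neuron-like cells. Doublets were not removed, and 4 barcodes of kept cells were shared by libraries. The library of flt1 mutant replicate 1 gave 77 of the 128 cells of one unnamed subcluster and 62 of the 86 cells of a venous-like subcluster, but 1 of the 133 cells of an endocardial-like one. Levels are given as CPM, the UMIs of a gene per 1000000 UMIs of a class of cells summed within a library. The flt1 transcript itself stood at 388 and 293 CPM in flt1 mutant and 399 and 317 in WT blood endothelial cells, and since 3′ reads lie away from the deletion this does not check the labels.

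The 12 endothelial subclusters were named from marker lists after the 5 genes and 16 further caveola genes had been left out of the clustering. Subcluster 0, 140 cells led by the transcription factor genes foxf2b, six3a and foxf2a and the efflux pump gene abcb4, was called brain capillary-like because 6 of 10 brain capillary markers were raised (slc16a1a, slco1d1, foxq1a, abcb4, slc7a5 and lef1). The summed level of that list was 217 to 762 CPM, against 47.0 to 140 in the other blood endothelial cells. The name holds only in part. The glucose transporter gene slc2a1a had 12 UMIs in these cells, the lipid transporter gene mfsd2aa had none, and 4 of 9 venous markers were raised as well. Subclusters 3, 9 and 11 were arterial-like, 6 and 8 venous-like, and these with subcluster 0 made up the 574 blood endothelial cells. The venous-like and lymphatic-like names shared markers. Subcluster 8 had 4 of 9 venous and 3 of 7 lymphatic markers raised, nearly the same share. Subcluster 6 had 7 of 9 and 4 of 7, and the lymphatic-like subcluster 4 had 6 of 9 and 6 of 7. Subclusters 2, 8 and 11 each had a marker of another list and none of their own among their 10 leading genes (pdgfra, thbs1b and angpt2a). Of the named classes only the brain capillary-like cells were compared between genotypes.

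All 5 genes were higher in endothelial cells than in all other cells in 4 of 4 libraries. They were called by an edgeR quasi-likelihood test of the summed counts, with the library as a block and an adjusted p under 0.05 as the threshold, as were 63.3% of 12386 genes tested (29.2% called higher). The log2 fold changes were 6.05 (SE 0.25, adjusted p = 5.6e-07) for plvapb and 5.59 (SE 0.28, adjusted p = 1.2e-06) for cav1, and 4.45, 3.23 and 3.66 for plvapa, cav2 and cavin1b, with adjusted p of at most 3.4e-04. Of these genes plvapa passed the filter on low counts through the endothelial arm alone. It had 72 UMIs in all other cells, of which 23 lay in erythrocyte-like cells and 22 in cluster 7 of WT replicate 1. The endothelium held 93.2% of the plvapb UMIs of all kept cells, 88.9% of those of cav1 and 78.0% of those of plvapa, but 63.4% for cavin1b and 59.0% for cav2. Within the endothelium the diaphragm genes lay mostly in blood endothelial cells, which held 86.2% of plvapb UMIs and 92.2% of plvapa UMIs. The shares were 49.0% for cav1 and 42% for each of cav2 and cavin1b, near the share of cells, as 574 of the 1245 endothelial cells were blood endothelial.

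**Figure D1:**
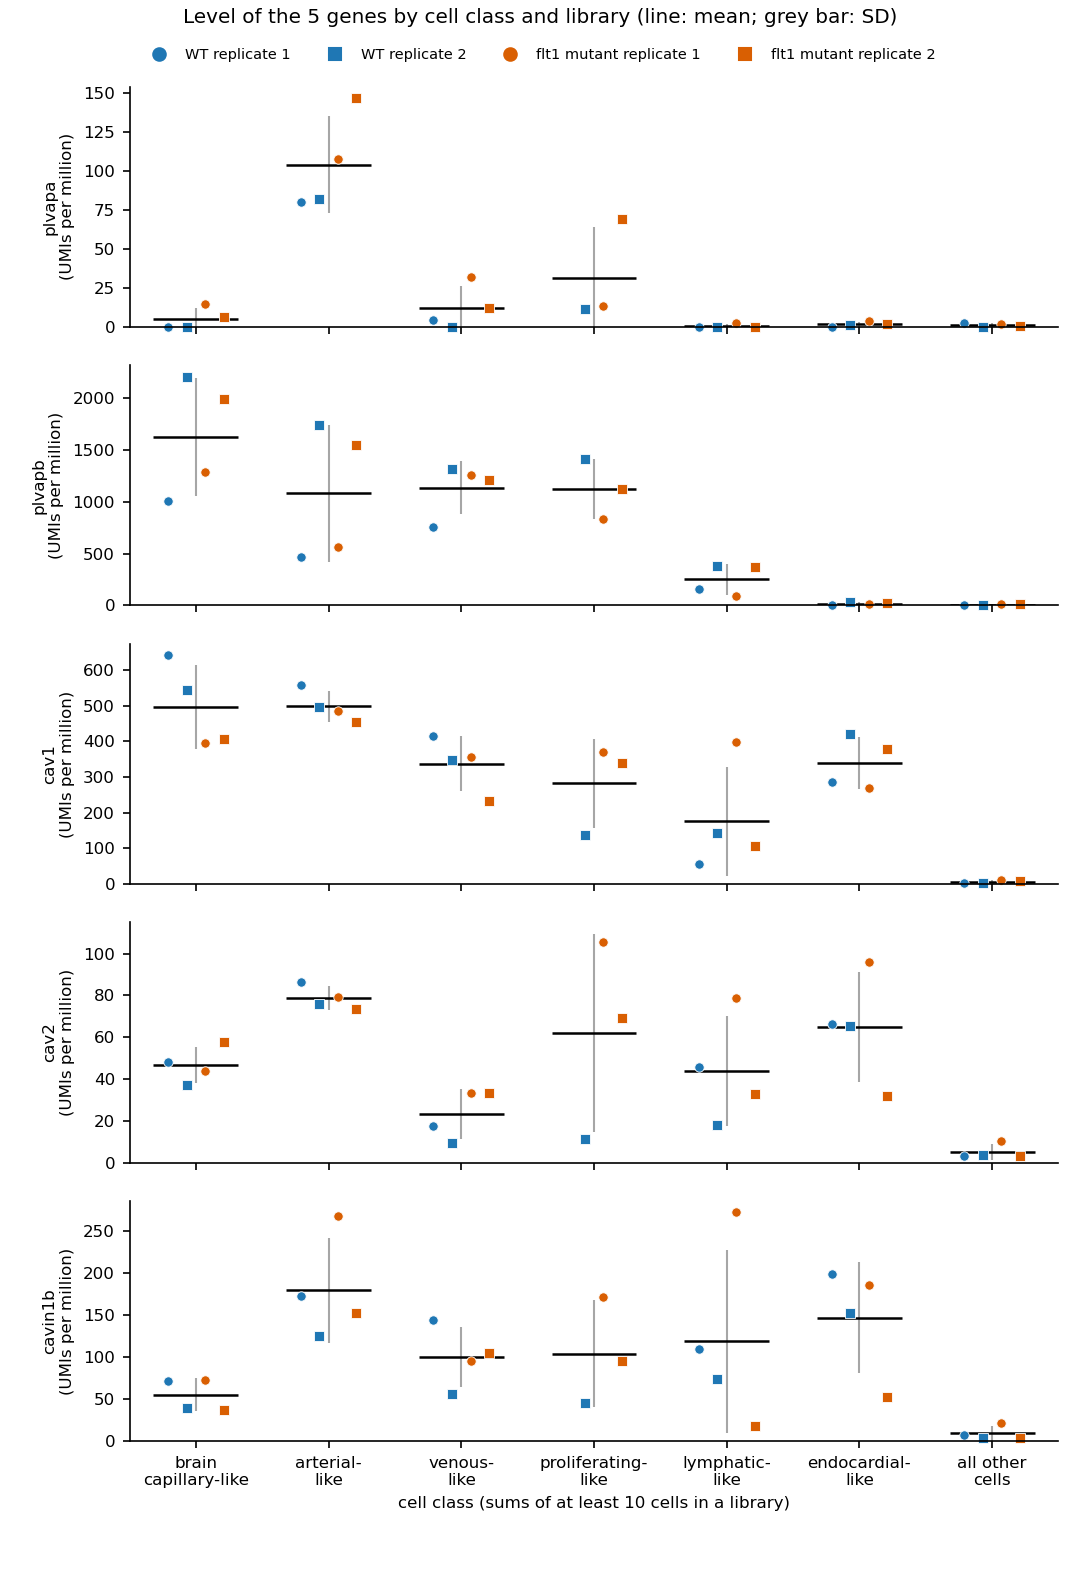
Level of each gene (CPM, linear axis from 0) in 6 endothelial classes and in all other cells, with 1 point per library, the mean as a line and the SD as a grey bar. The plvapb points of brain capillary-like, arterial-like and venous-like cells lie between 464 and 2205, above those of lymphatic-like cells (87.9 to 380) and endocardial-like cells (0 to 31.0), while cav1 stays above 55 in every endothelial class.

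In brain capillary-like cells plvapb was high and plvapa nearly missing. The plvapb level there was 1003 and 2205 CPM in the WT libraries (replicates 1 and 2) and 1284 and 1994 in the flt1 mutant libraries, and in the other blood endothelial cells it was 584, 1609, 921 and 1421 in the same order. The brain capillary-like value was the higher one in 4 of 4 libraries, though the ranges overlapped because both replicate 2 libraries stood high in both classes. The means were 1622 ± 570 and 1134 ± 468 CPM (SD, n = 4 libraries), a log2 fold change of 0.56 (SE 0.11, edgeR adjusted p = 0.0052). The call was lost without WT replicate 1 (0.49, adjusted p = 0.0517), which gave 15 of the 140 cells, and also without the library block (0.55, adjusted p = 0.49) and against venous-like cells alone (0.43, adjusted p = 0.086). High plvapb was not particular to these cells, as the arterial-like subcluster 3 had a mean of 1624 CPM (935 to 2403). The pooled other cells also held the arterial-like subclusters 9 and 11, at means of 350 and 250 CPM.

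For plvapa the 4 libraries held 0, 0, 14.7 and 6.19 CPM in brain capillary-like cells, 6 UMIs in all, and 49.6, 57.0, 68.7 and 95.1 CPM in the remaining blood endothelium. The groups did not overlap, and the log2 fold change was -3.81 (SE 0.49, edgeR adjusted p = 3.5e-04). With 6 UMIs in brain capillary-like cells, plvapa passed the filter on low counts through the other arm alone. The other arm was carried by the arterial-like subclusters 3 and 9, at means of 145 and 79.9 CPM, whereas the venous-like subcluster 6 (6.68 CPM) and the arterial-like subcluster 11 (5.67 CPM) were as low as the brain capillary-like mean of 5.21 CPM. Against venous-like cells alone plvapa had no tested value. A plvapa UMI was found in 3 of 140 brain capillary-like cells, or 2.14% (95% Clopper-Pearson interval 0.444 to 6.13, counting error only) at a median of 8430 UMIs per cell, and in 3 of 184 erythrocyte-like cells, or 1.63%, at a median of 19051. Those 3 cells held 23 plvapa UMIs, so that this share does not measure free RNA.

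The caveolin genes were not called in brain capillary-like cells, whereas cavin1b was lower there than in the pooled other blood endothelial cells. The cav1 level was 642, 545, 396 and 406 CPM in brain capillary-like cells and 499, 452, 418 and 369 in the other blood endothelial cells, in the order of libraries used above. These ranges overlapped, and the log2 fold change was 0.20 (SE 0.14, edgeR adjusted p = 0.58). The cav2 level was 48.1, 37.1, 44.0 and 57.8 CPM against 58.4, 55.6, 55.8 and 58.0, a little lower in 4 of 4 libraries without passing (log2 fold change -0.26, SE 0.25, adjusted p = 0.72). For cavin1b the libraries gave 72.2, 39.4, 73.3 and 37.1 CPM in brain capillary-like cells and 161, 104, 179 and 135 in the others. Every brain capillary-like value was below every value of the pooled others, with a log2 fold change of -1.44 (SE 0.21, edgeR adjusted p = 7.3e-04). The call was kept in 15 of 15 alternatives. By subcluster, the venous-like subcluster 6, at 76.1 CPM (52.8 to 110), and the arterial-like subcluster 11 (38.5 to 284) overlapped the brain capillary-like range. So did the lymphatic-like subcluster 4 (18.2 to 273 CPM) and the proliferating-like subcluster 7 (45.9 to 172), which were not in the pooled others. The unnamed subcluster 5 and the endocardial-like subcluster 2 had lower means, 37.6 and 35.1 CPM, than the 55.5 of brain capillary-like cells. Against the pooled other blood endothelial cells 3 of the 5 genes were called, 1 higher and 2 lower, against 5.63% of 5083 genes tested (2.66% higher and 2.97% lower). Of the 2 lower genes, plvapa had passed the filter on low counts through the other arm alone.

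**Figure D2:**
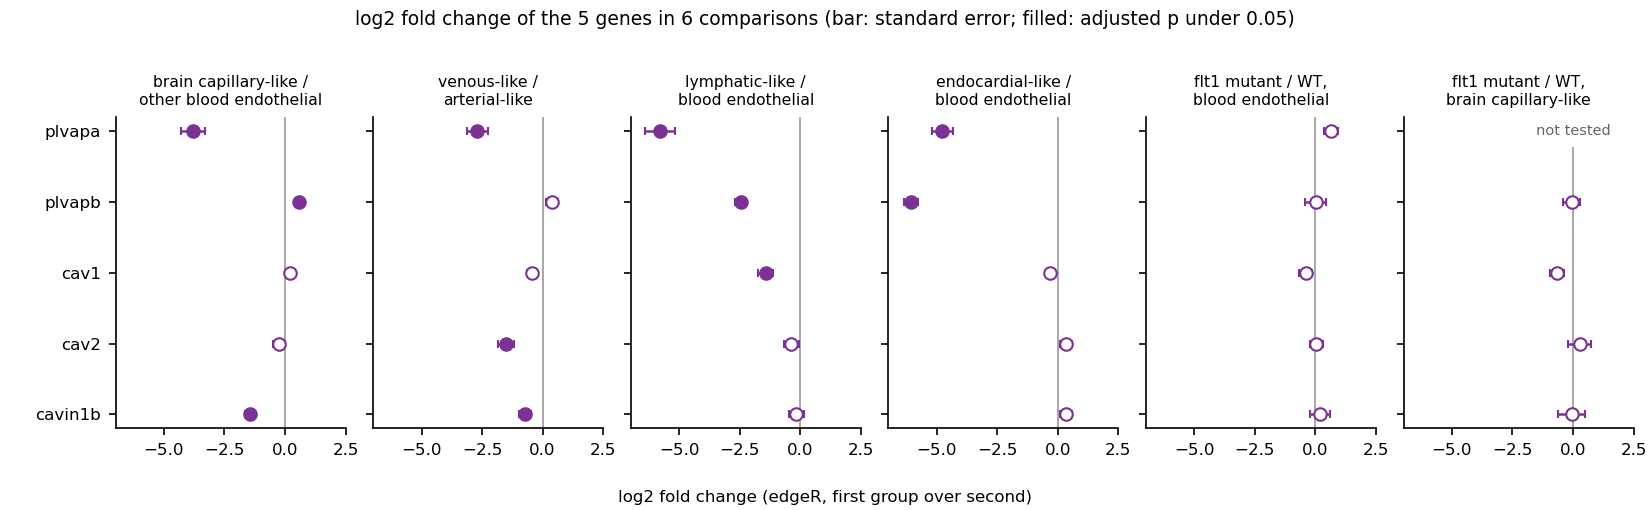
Log2 fold change of each gene (edgeR, first group over second) in 4 comparisons of cell classes and 2 of genotypes, with the standard error as a bar and filled points for an adjusted p under 0.05. In brain capillary-like cells plvapb lies at 0.56 and plvapa at -3.81, and no point of the genotype comparisons is filled.

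Most brain capillary-like cells held the transcripts of both plvapb and cav1. A plvapb UMI was found in 84.0% ± 8.58 of these cells and a cav1 UMI in 71.4% ± 8.46 (SD, n = 4 libraries), against 77.7% ± 3.93 and 67.1% ± 7.73 of the other blood endothelial cells, whose median was 6613 UMIs. Both UMIs together were found in 92 of 140 brain capillary-like cells, or 65.7% (95% interval 57.2 to 73.5), and in 1 of 184 erythrocyte-like cells, or 0.543%. With each cell thinned to 1000 UMIs, which left out 1 brain capillary-like cell, the shares were 59.6% ± 14.4 for plvapb and 32.2% ± 8.19 for cav1, and 46.9% ± 8.69 and 30.3% ± 7.17 in the other blood endothelial cells with 5 left out.

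Within subcluster 0, the plvapb level was lower in cells with more brain capillary markers detected. This split was made after the values had been seen and is given without a test, and the smaller group held 5, 14, 9 and 10 cells by library, below the minimum of 10 used elsewhere for 2 of the 4. In the 38 cells with UMIs of 2 or more of the 10 brain capillary markers, the plvapb level was 763, 1572, 1055 and 1728 CPM, and in the 102 cells with 0 or 1 marker it was 1130, 2478, 1383 and 2057. It was lower in the first group in 4 of 4 libraries, at median depths of 8063 and 8653 UMIs per cell. In WT replicate 1 the lower value rests on 33 plvapb UMIs. All 6 plvapa UMIs lay in the cells with 0 or 1 marker, but they came from very few cells and that group of 102 is the larger one. The WT libraries had no plvapa UMI in either group, so that this split cannot tell whether plvapa goes with the markers. The cav1 means were close, 486 ± 202 and 499 ± 84.5 CPM (SD, n = 4 libraries), and cavin1b stood at 39.1 ± 22.3 and 62.4 ± 28.7 CPM.

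**Figure D3:**
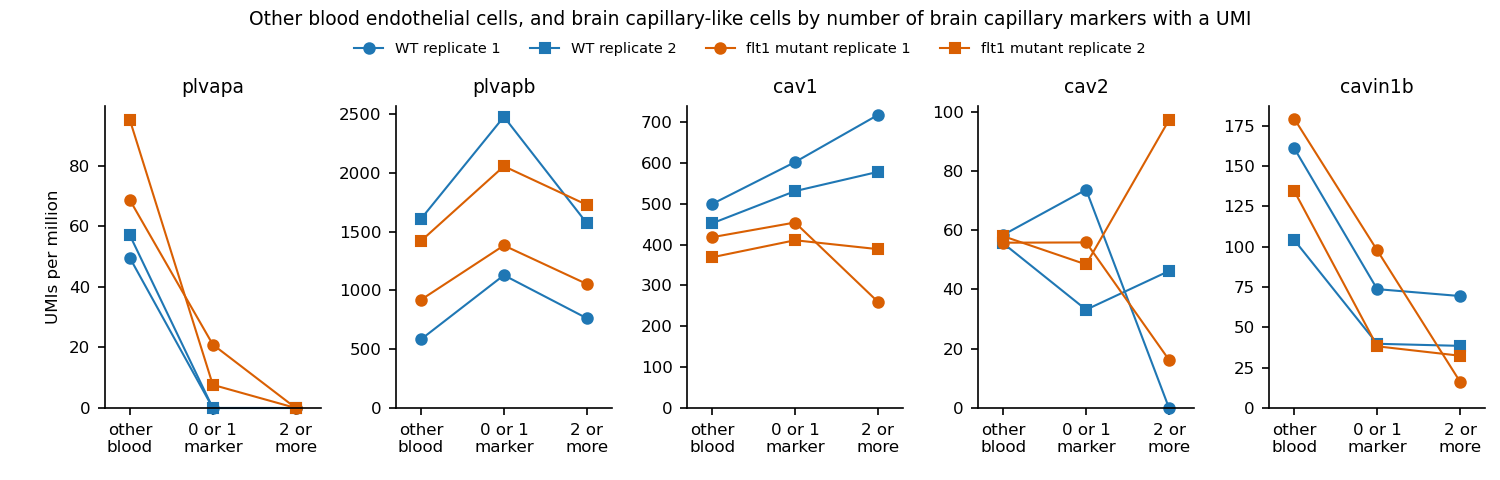
Level of each gene (CPM, 1 line per library) in the other blood endothelial cells, in brain capillary-like cells with 0 or 1 brain capillary marker detected, and in those with 2 or more. The plvapb lines peak in the middle group and fall in all 4 libraries towards the cells with 2 or more markers. There plvapa is at 0 in each library, as it is in both WT libraries in the cells with 0 or 1 marker.

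The pooled arterial-like cells had more plvapa and cav2 than the pooled venous-like cells, and plvapb did not differ beyond its spread. The plvapa level was 80.4, 81.8, 108 and 147 CPM in arterial-like cells and 4.36, 0, 31.7 and 12.1 in venous-like cells, in the order WT replicates 1 and 2 and flt1 mutant replicates 1 and 2. The groups did not overlap, and the log2 fold change of venous-like over arterial-like was -2.70 (SE 0.43, edgeR adjusted p = 8.1e-04), or -3.91 without flt1 mutant replicate 1. With 24 UMIs in venous-like cells, plvapa passed the filter on low counts through the arterial-like arm alone. The cav2 level was 73.5 to 86.3 CPM in arterial-like and 9.41 to 33.4 in venous-like cells, again without overlap (log2 fold change -1.50, SE 0.33, adjusted p = 0.0066). With 37 UMIs in venous-like cells, cav2 too passed this filter through the arterial-like arm alone. By subcluster, cav2 was highest in the arterial-like subcluster 9, at 124 to 158 CPM. The arterial-like subclusters 3 (27.0 to 63.8 CPM) and 11 (9.63 to 56.7) overlapped the venous-like range. For plvapa, subclusters 3 (91.1 to 216 CPM) and 9 (42.8 to 114.5) were high, but subcluster 11 (0 to 11.3) lay within the venous-like range.

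For cavin1b the venous-like level was lower in 4 of 4 libraries, 100 ± 36.0 against 180 ± 62.4 CPM (SD, n = 4 libraries), with a log2 fold change of -0.74 that only just passed (edgeR adjusted p = 0.047). The call ended in 8 of 14 alternatives, among them leaving out flt1 mutant replicate 1 (-0.45, adjusted p = 0.25), WT replicate 2 (-0.65, adjusted p = 0.12) or flt1 mutant replicate 2 (-0.86, adjusted p = 0.079). The cav1 levels of 415, 348, 356 and 232 CPM in venous-like cells lay below the 557, 497, 484 and 454 of arterial-like cells without passing (-0.45, adjusted p = 0.10), and passed without subcluster 8 (-0.99, adjusted p = 0.0034). For plvapb the difference of 0.40 (adjusted p = 0.31) passed at a sub-clustering resolution of 0.6 (0.69, adjusted p = 0.011). In all, 3 of 5 genes were called, each lower in venous-like cells, against 19.8% of 4342 genes tested (8.18% lower). Of these, plvapa and cav2 had passed the filter on low counts through the arterial-like arm alone.

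The classes hid differences between their subclusters. Each of the 6 blood endothelial subclusters was also set against the remaining blood endothelial cells, a set of comparisons added after the data had been seen. Subcluster 3, arterial-like cells led by her12, nkx2.3 and plvapa, had the most plvapa, at 91.1 to 216 CPM, with a log2 fold change of 2.82 (SE 0.37, edgeR adjusted p = 4.8e-05), the one member called there, against 16.9% of 4681 genes (6.43% higher). As plvapa passed the filter on low counts through subcluster 3 alone and was one of its leading genes, its call is no separate result. The plvapb level of subcluster 3, 1624 ± 765 CPM (SD, n = 4 libraries), was next to that of subcluster 0 and was not called (0.40, adjusted p = 0.068).

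Subcluster 9, arterial-like cells led by rgs5a and lhx8a, had little plvapb beside high levels of the coat genes. Its plvapa level was not low, at 79.9 ± 35.9 CPM (SD, n = 3 libraries), and was not called (log2 fold change 1.06, edgeR adjusted p = 0.11). There plvapb was 97.8, 728 and 224.5 CPM in the 3 libraries with at least 10 cells (log2 fold change -2.15, SE 0.27, edgeR adjusted p = 0.0015). All 3 caveola coat genes were higher, cav1 at 715 ± 136, cav2 at 137 ± 18.7 and cavin1b at 258 ± 94.5 CPM (SD, n = 3 libraries), with log2 fold changes of 0.76, 1.96 and 1.37 and adjusted p of 0.027, 0.0029 and 0.022. Thus 4 of 5 genes were called, against 7.63% of 4076 genes (3.73% higher and 3.9% lower). Without WT replicate 1 the call of cav1 ended (0.73, adjusted p = 0.15), and without the library block that of plvapb did (-1.96, adjusted p = 0.061).

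Subcluster 6, venous-like cells led by lyve1a, had less of 4 of the 5 genes, with log2 fold changes of -2.78 for plvapa, -0.99 for cav1, -1.98 for cav2 and -0.72 for cavin1b (edgeR adjusted p = 6.0e-04, 0.0014, 0.0018 and 0.042; 25.8% of 4461 genes called, 13.5% lower). The call of cavin1b ended without any one of the 4 libraries, with an adjusted p of 0.085 to 0.25, and that of cav1 without flt1 mutant replicate 2 (-0.77, adjusted p = 0.053) or without the library block (-0.91, adjusted p = 0.060). With 5 and 9 UMIs in subcluster 6, plvapa and cav2 passed the filter on low counts through the other arm alone. The plvapa value was -3.91 without flt1 mutant replicate 2. The plvapb level of subcluster 6 was even over the libraries at 1010 ± 64.5 CPM. The arterial-like subcluster 11 also had 3 of 4 tip cell markers raised, among them angpt2a, as many as subcluster 3. In subcluster 11 plvapb (-2.76, adjusted p = 0.0019) and cav1 (-1.90, adjusted p = 0.044) were lower, from 2 libraries and against 3.19% of 6073 genes called (1.83% lower). With the size factors of DESeq2 the call of cav1 ended (-1.87, adjusted p = 0.079). No gene of the 5 was called in subcluster 8, also from 2 libraries, where 10% of 5080 genes were.

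**Figure D4:**
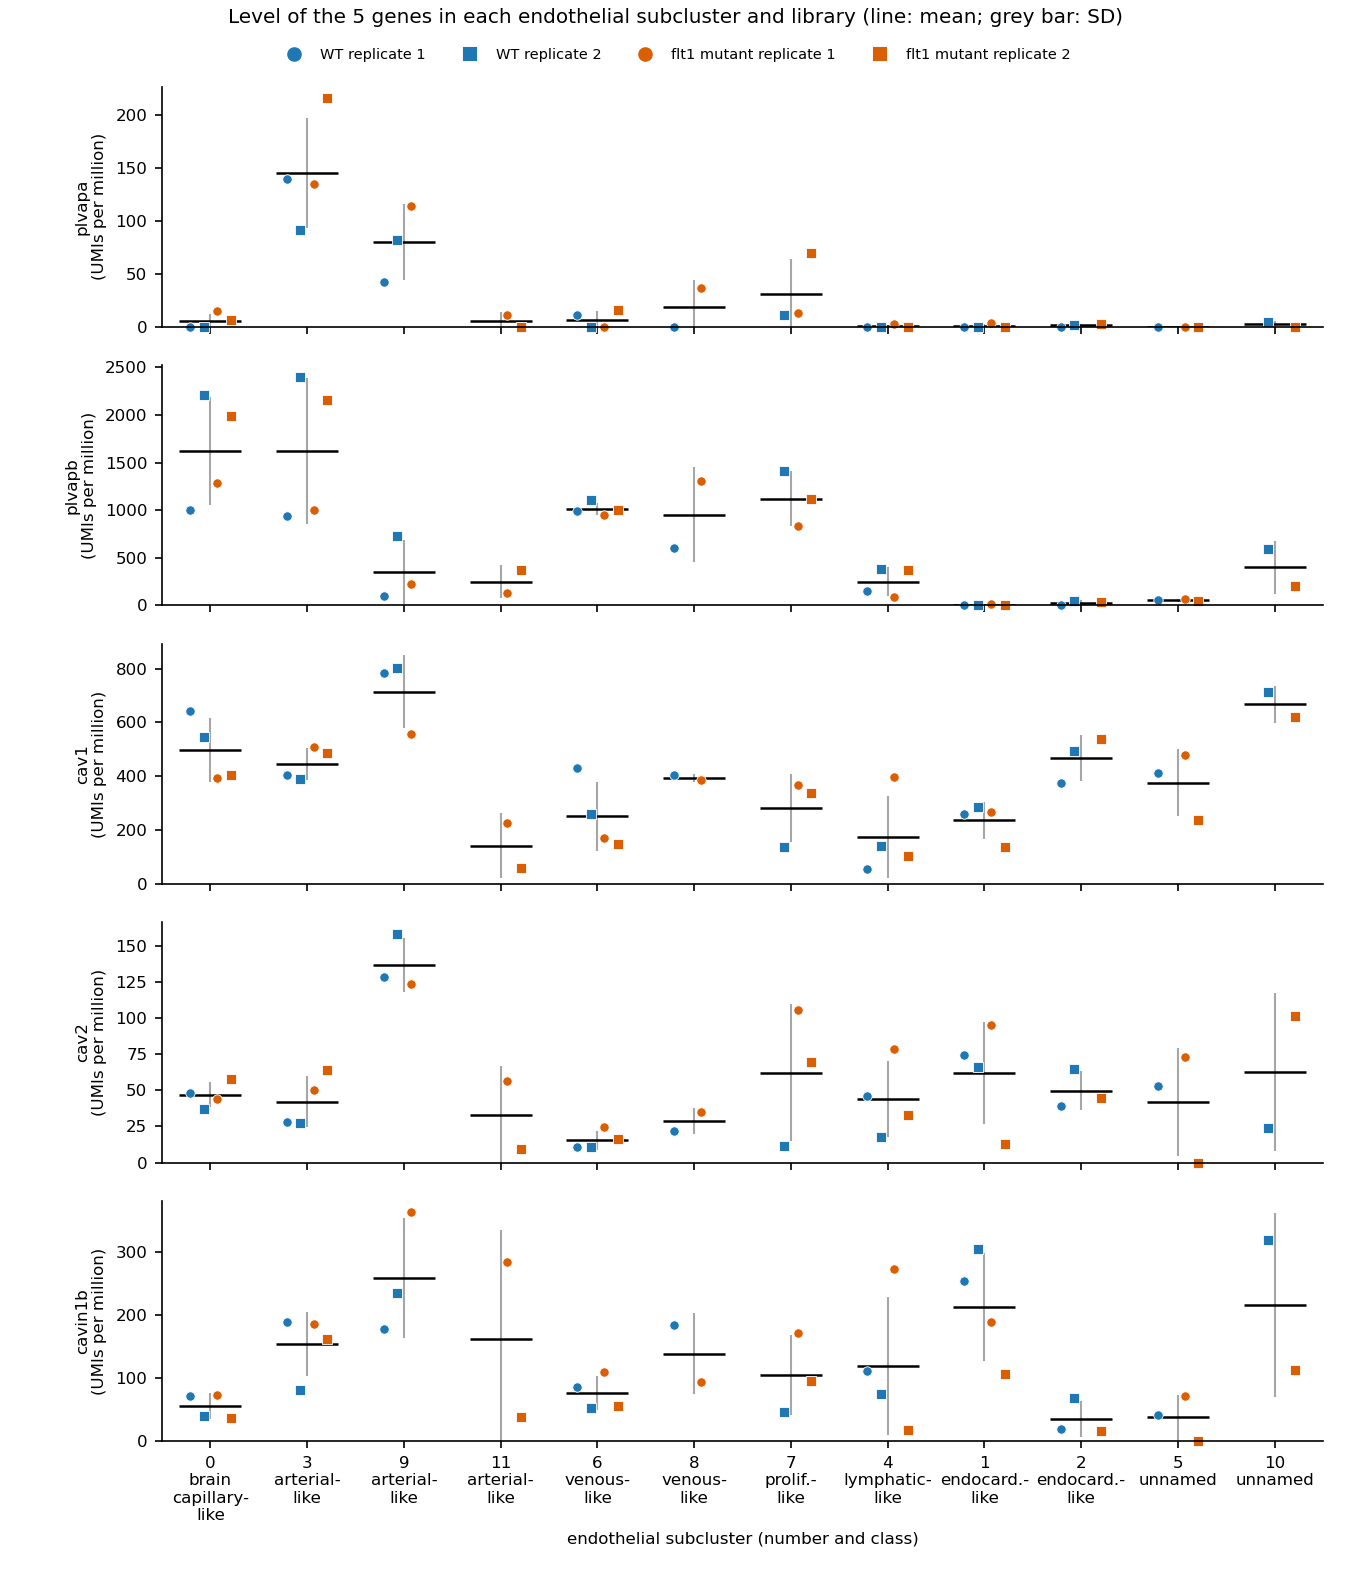
Level of each gene (CPM) in the 12 endothelial subclusters, with 1 point per library of at least 10 cells, the mean as a line and the SD as a grey bar. Subcluster 9 is the highest for cav1, cav2 and cavin1b and low for plvapb, and subclusters 0 and 3 have plvapb means of 1622 and 1624.

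In the order of levels over the 12 subclusters most neighbours overlapped in their range over libraries. For plvapb the first break came below the 5 highest, subclusters 3, 0, 7, 6 and 8 at means of 954 to 1624 CPM, and the next group began with the unnamed subcluster 10 at 398 ± 276. For cav2 subcluster 9 stood apart, with a lowest library of 124 CPM against a highest of 101 in the next one. For plvapa, cav1 and cavin1b no neighbours in the order were separate. The proliferating-like subcluster 7, at a median of 975 UMIs per cell, had a plvapb level of 831 to 1411 CPM.

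The lymphatic-like cells had less of the diaphragm genes than the pooled blood endothelial cells. Their plvapb level was 156, 380, 87.9 and 374 CPM against 660, 1836, 975 and 1627 in blood endothelial cells, without overlap (log2 fold change -2.45, SE 0.24, edgeR adjusted p = 9.2e-07). By subcluster, the arterial-like subclusters 11 (125 to 376 CPM) and 9 (97.8 to 728) overlapped the lymphatic-like range, so that low plvapb was not particular to these cells. A single plvapa UMI was found in 129 lymphatic-like cells (log2 fold change -5.79, SE 0.63, adjusted p = 3.7e-06). That UMI lay in flt1 mutant replicate 1, without which the fitted value of -7.91 rests on the prior count. So plvapa passed the filter on low counts through the blood endothelial arm alone. The cav1 level was lower too, 55.1, 142, 399 and 105 against 525, 487, 415 and 382 CPM (log2 fold change -1.43, SE 0.32, adjusted p = 0.0032), with the value of flt1 mutant replicate 1 inside the blood endothelial range. That call ended at a sub-clustering resolution of 0.6 (-0.42, adjusted p = 0.13) and without the library block (-1.28, adjusted p = 0.082). By subcluster, cav1 in the arterial-like subcluster 11 (57.8 to 227 CPM) and the venous-like subcluster 6 (148 to 429) overlapped the lymphatic-like range. The plvapa means of subclusters 0, 6 and 11 were low as well, at 5.21, 6.68 and 5.67 CPM. The values of cav2 and cavin1b did not pass, and 3 of 5 genes were called, all lower, against 18.5% of 5475 genes (9.95% lower).

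The endocardial-like cells, named after the lining of the heart, had caveola transcripts with hardly any of the diaphragm. Of these 272 cells 133 were subcluster 2, with the mesenchymal gene pdgfra and no endocardial marker among its 10 leading genes. The 8 mesenchymal markers, of which 7 were detected and tcf21 was at 0, summed to 673 to 1237 CPM in the class against 52.6 to 91.3 in blood endothelial cells, and their part in the results was not tested. Their plvapb level was 0, 31.0, 14.0 and 25.2 CPM, 59 UMIs in 272 cells, against 660 to 1836 CPM in blood endothelial cells (log2 fold change -6.06, SE 0.28, edgeR adjusted p = 9.8e-09), and plvapa had 4 UMIs (-4.76, SE 0.42, adjusted p = 2.9e-06). The cav1 level of 286, 420, 268 and 378 CPM did not pass as different (-0.31, SE 0.17, adjusted p = 0.22), nor did cav2 at 31.9 to 95.9 (0.33, adjusted p = 0.40) or cavin1b at 52.1 to 199 (0.34, adjusted p = 0.37). This pattern was not particular to these cells. The unnamed subcluster 5 had no plvapa UMI, plvapb at 41.2 to 70.7 CPM and cav1 at 377 ± 125 (SD, n = 3 libraries). The endocardial-like class joins subclusters of unlike levels. The cavin1b mean was 213 ± 85.6 CPM in subcluster 1 (SD, n = 4 libraries) and 35.1 ± 29.2 in subcluster 2 (SD, n = 3 libraries), without overlap, and the cav1 mean was 237 ± 68.5 and 469 ± 85.2, also without overlap. Subcluster 1 gave 31, 32, 57 and 19 cells by library and subcluster 2 gave 14, 74, 1 and 44, so that the class values move with this mix. A cav1 UMI was found in 67.6% ± 7.26 of endocardial-like cells and a plvapb UMI in 6.34% ± 5.14 (SD, n = 4 libraries), at a median of 9499 UMIs per cell. With each cell thinned to 2000 UMIs, 5 of 267 endocardial-like and 1 of 177 erythrocyte-like cells had a plvapb UMI, a difference within counting error. Thus 2 of 5 genes were called, both lower, against 25.5% of 6613 genes (13% lower). Both passed the filter on low counts through the blood endothelial arm alone. Without flt1 mutant replicate 2, cavin1b passed as higher (0.65, adjusted p = 0.040).

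The PLVAP paralogs stood in unlike proportions in arterial-like subclusters 3 and 9 and in brain capillary-like cells. Of the UMIs of plvapa and plvapb together, plvapa made up 19.5% in subcluster 9 (95% Clopper-Pearson interval 14.6 to 25.2), 7.83% in subcluster 3 (6.70 to 9.08), 1.90% in the venous-like subcluster 8 (1.15 to 2.96), 1.25% in subcluster 11 (0.0316 to 6.77), 0.789% in the venous-like subcluster 6 (0.257 to 1.83) and 0.260% in brain capillary-like cells (0.0953 to 0.564). The intervals of the last 3 overlapped. They cover counting error only, with the libraries pooled, although plvapb differed between libraries. By library subcluster 9 had 7, 13, 25 and 0 plvapa UMIs beside 16, 115, 49 and 6 plvapb UMIs, and 17 and 26 of its 63 cells came from the replicate 1 libraries, whose plvapb levels were the lower ones. Reads that cannot be told apart between the paralogs could have been lost in the counting, which the files cannot show.

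Of a list of 17 further genes of caveola assembly, coat and neck, 16 were in the files and 6 passed the filter on low counts in the brain capillary-like comparison. The 3 that were higher there were so in 4 of 4 libraries. The ATPase gene ehd4 stood at 306 ± 113 against 147 ± 39.2 CPM (SD, n = 4 libraries; log2 fold change 1.09, edgeR adjusted p = 0.0025), the cavin gene cavin2b at 456 ± 210 against 260 ± 15.5 (0.75, adjusted p = 0.039) and ehd1b at 225 ± 39.0 against 154 ± 28.2 (0.57, adjusted p = 0.048). A further ATPase gene, ehd3, had 1 UMI in brain capillary-like cells and 75.6 ± 45.0 CPM in the others (-6.40, adjusted p = 1.8e-05). It passed the filter through the other arm alone, where it was the first leading gene of subcluster 11, and its value leans on the prior count. The median log2 fold change of the 6 genes was 0.47, against -0.01 over all genes tested. Of the 6, 3 were called higher and 1, ehd3, lower, where 2.66% and 2.97% of all genes were.

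The other cavins and the muscle caveolin gave little. In brain capillary-like cells cav3, cavin1a, cavin4a and cavin4b had no UMI, and cavin2a had 6. In venous-like cells ehd2b (-1.0, edgeR adjusted p = 0.010) and ehd3 (-4.90, adjusted p = 1.5e-05) were lower than in arterial-like cells, 2 of 6 genes tested against 8.18% of all genes. In endocardial-like cells cavin2b was higher (0.76, adjusted p = 0.0034) and ehd2b, ehd3 and ehd4 lower (-1.63, -4.61 and -4.46, adjusted p of at most 0.0013), 4 of 9 genes tested against 25.5% of all genes called. The low arms held few UMIs of ehd3 (6 in venous-like and 5 in endocardial-like cells) and of ehd4 (24 in endocardial-like cells). There both genes passed the filter on low counts through the other arm alone. In endocardial-like cells ehd2b, at 3.36 to 50.4 CPM, did so as well. In lymphatic-like cells ehd3 and ehd4 were lower (-3.93 and -2.56, adjusted p of at most 5.8e-06), 2 of 7 against 9.95% of all genes.

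Of 10 regulators of the barrier and of fenestrae, 7 were tested in brain capillary-like cells. Only lef1, the nuclear effector of Wnt signalling, was called (1.18, edgeR adjusted p = 0.019), against 5.63% of all genes (2.66% higher). As lef1 was also among the naming markers, its call is no separate result. The Wnt co-receptor gene adgra2 had 1.12 without passing (adjusted p = 0.15), and neither did the Vegf receptor genes kdr (0.34, SE 0.20, adjusted p = 0.46) and kdrl (0.11, SE 0.11, adjusted p = 0.73). The lipid transporter gene mfsd2ab, a paralog of mfsd2aa, stood at 32.8 ± 17.4 CPM in brain capillary-like cells and 32.9 ± 21.3 in the others (SD, n = 4 libraries). The Wnt target gene axin2 was higher (1.46, adjusted p = 0.0032) and flt1 lower (-0.86, adjusted p = 0.013) in venous-like than in arterial-like cells. Of 6 regulators tested there, 1 was thus called higher and 1 lower, against 19.8% of all genes called. In endocardial-like cells 4 of the 7 regulators tested were lower than in blood endothelial cells, kdrl by a log2 fold change of -1.63 (adjusted p = 1.3e-05), adgra2 by -1.67, flt1 by -1.12 and kdr by -0.76, 4 of 7 against 13% of all genes called lower. With 16 UMIs in endocardial-like cells, adgra2 passed the filter on low counts through the blood endothelial arm alone. In lymphatic-like cells 3 of 7 were lower, kdrl (-3.65), flt1 (-3.84) and lef1 (-1.32), with adjusted p of at most 0.013, against 9.95% of all genes.

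None of the 5 genes differed past the threshold between flt1 mutant and WT libraries, nor did any gene of the caveola and regulator lists. In brain capillary-like cells cav1 was 396 and 406 CPM in the flt1 mutant and 642 and 545 in WT libraries, without overlap, but the log2 fold change of -0.66 (SE 0.28, unadjusted p = 0.045) had an edgeR adjusted p of 1.0. The values of plvapb (-0.06, SE 0.35), cav2 (0.28, SE 0.46) and cavin1b (-0.05, SE 0.55) were within their errors. Here plvapa was not tested, with no UMI in WT and 6 in flt1 mutant libraries. No gene of the 3871 tested was called (0%), and 173 had an unadjusted p under 0.05.

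In all blood endothelial cells plvapa was 40.6 and 35.3 CPM in WT and 60.6 and 63.1 in flt1 mutant libraries (log2 fold change 0.65, SE 0.29, unadjusted p = 0.053, edgeR adjusted p = 1.0). The groups did not overlap, and the same gene had 0.98 (SE 0.32, unadjusted p = 0.020, adjusted p = 0.99) over all endothelial cells. That value also moves with the mix of classes, since blood endothelial cells held 92.2% of endothelial plvapa UMIs. They were 84 of 182 and 128 of 318 endothelial cells in WT, and 187 of 394 and 175 of 351 in flt1 mutant libraries. The part of this mix was not tested. For plvapb the libraries of a genotype differed more than the genotypes: 660 and 1836 CPM in WT and 975 and 1627 in the flt1 mutant (0.02, SE 0.43). The edgeR test called 0 of 7737 and 0 of 10024 genes (0% each), with 305 and 448 at an unadjusted p under 0.05, and DESeq2 called 3 and 6, none of them among the 5. The interaction of genotype and class in brain capillary-like cells was called for none of the 5, against 0.264% of 6061 genes.

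Outside the endothelium the highest mean levels of cav1, cav2 and cavin1b were in mesenchymal-like cells, though in flt1 mutant replicate 2 cav1 was 217 CPM in the epithelial-like cluster 7, from 21 UMIs. In cluster 10, 186 cells led by the cartilage collagen genes col2a1a and col9a2, cavin1b was 168, 75.1, 303 and 40.0 CPM, cav1 57.4, 150, 98.0 and 126, and plvapb 53.5, 189, 58.1 and 226. The cavin1b values spread to both sides of those of blood endothelial cells (79.5 to 164 CPM), and those of cav1 and plvapb lay below them. The summed level of 15 pan-endothelial markers in that cluster was 745 to 2545 CPM, all 15 being detected, against 5477 to 6773 in endothelial cells, and their part in these levels was not tested. In cluster 11, 186 thrombocyte-like cells, cav2 was 30.7 to 39.0 CPM and cavin2b 479 to 692.

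A small cluster led by the neuroendocrine genes ascl1a and tph1b, 39 of whose 47 cells came from flt1 mutant replicate 1, held plvapb at 251 CPM in that library, with pan-endothelial markers at a sum of 1657 CPM, 14 of 15 being detected and erg being at 0. Erythrocyte-like cells held 0 to 5.81 CPM of plvapb and 0 to 2.51 of cav1. For plvapa they held 0, 16.7 and 0 CPM in the 3 libraries with at least 10 cells, 23 UMIs in 3 cells.

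Over the 38 sums of subcluster and library, the gene most like plvapb was ehd4 (Pearson r = 0.91 of log2(CPM + 10), over 4891 genes), followed by cpn1 (0.89) and pcdh12 (0.88). Those most like plvapa were nkx2.3 (0.84), cxcr4b (0.76) and her4.1 (0.75). The caveola coat genes had no such close companions: the highest r was 0.61 for cav1 (tomm34), 0.60 for cav2 (krt4) and 0.60 for cavin1b (gfod2). Among the 5 genes themselves r was 0.55 for cav2 and cavin1b, 0.51 for cav1 and cav2 and 0.46 for plvapa and plvapb, but 0.11 for plvapb and cav1. These sums share libraries and differ in depth, and the values describe this set only.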

How the data were processed

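The authors counted UMIs per gene with Cell Ranger 6.1.1 on GRCz11, and the deposited values are raw counts of called cells. The labels and the methods name different versions of the chemistry. Following the study's limits, a cell needed 200 to 4500 detected genes and at most 5% of its UMIs from mitochondria, which left 11165 to 16940 median UMIs per library. Clustering in Seurat 5.3.0 (R 4.3.3) used 2000 variable genes less the members and caveola genes, 20 principal components and resolution 0.5, then 1 for endothelial cells. A subcluster took the name of the list with the largest share of raised markers (1.5-fold, in 10% of cells), at least 3 markers and a share of 0.4, limits set after the clusters were seen. Counts of at least 10 cells per library and class were summed and tested in edgeR 4.0.16 (TMM, filterByExpr, quasi-likelihood F-test, Benjamini-Hochberg over all genes tested, threshold 0.05), with library as block between classes and genotype alone between genotypes. A gene could pass the filter through 1 arm alone, as plvapa and ehd3 did where the other arm was near 0. In the endocardial-like comparison plvapb, ehd4, ehd2b and adgra2 did so too. So did cav2 where venous-like cells or subcluster 6 were the low arm, and plvapa in subcluster 3 and in endothelial against all other cells. The fit was tested on simulated data. Each blood endothelial subcluster was also tested against the rest, added after the data were seen. Alternatives were DESeq2 1.42.0 and its size factors, no filter, resolutions 0.6 and 1.5, no gene limit, no cells of the top 5% of UMIs, sums of at least 20 cells, no block or a replicate block, and each library left out. Shares of cells came from the own depth and after thinning to 1000 or 2000 UMIs. The named genes were the 5 members, both lists, and the 3 genes of highest r per member. The members and lists were chosen with earlier results of these data known.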

Additional observations from a re-analysis of the deposited data

Results flagged for a closer look

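In groups of 4 libraries, a library whose gap to the nearest other was over Dixon's 95% critical share of the whole range was singled out, which chance alone does in about 1 of 20 groups, and 3 of 45 groups did so. In lymphatic-like cells plvapa was 2.25 CPM in flt1 mutant replicate 1 and 0 in the other libraries, which is 1 UMI. Over all endothelial cells cav1 was 361 CPM in flt1 mutant replicate 2 and 404 to 408 in the others. In all other cells cav2 was 10.4 CPM in flt1 mutant replicate 1 and 3.01 to 3.47 in the others.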

How the results depend on the processing

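Of the values recomputed under an alternative, 1087 kept their direction and their side of the threshold or their size, 61 moved further, 34 changed sign, 28 lost a call and 4 gained one, and the cause was not tested. In brain capillary-like against other blood endothelial cells, the number of genes called went from 286 to 183 with DESeq2, 461 without a filter, 440 without the cells of most UMIs, 97 without the library block, and 436 and 473 against arterial-like or venous-like cells alone, and was 159 to 263 with a library left out. There plvapb lost its call in sums of at least 20 cells (0.49), without the block (0.55, adjusted p = 0.49) and against venous-like cells alone (0.43), where cav2 turned to 0.88 and 1 of the 5 genes was called, and it was 0.49 to 0.60 with a library left out. At resolution 0.6 no subcluster was brain capillary-like, so that this alternative gave no value. Venous-like against arterial-like cells had 546 calls with DESeq2 in place of 858, and 468 to 811 with a library left out. Lymphatic-like against blood endothelial cells had 654 without the block in place of 1015, and cavin1b turned to 0.26 at resolution 0.6 and 0.014 without the block, with -0.67 to 0.21 when a library was left out.

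The genotype comparisons, with 0 calls, changed most. In blood endothelial cells 3 genes were called with DESeq2, 81 without a filter and 2 without subcluster 8, where plvapb turned to -0.13; with a library left out 0 to 104 were, with plvapb at -0.50 to 0.80, cav2 at -0.17 to 0.23 and cavin1b at -0.33 to 0.77. In brain capillary-like cells 37 were called without a filter and 50 in sums of at least 20 cells, and 17 to 50 with a library left out; plvapb turned to 0.068 at resolution 1.5, and cavin1b to 0.19 without a gene limit and 0.35 in sums of at least 20 cells, with ranges of -0.46 to 0.53 for plvapb, -0.069 to 0.45 for cav2 and -0.67 to 0.47 for cavin1b when a library was left out. Over endothelial cells DESeq2 called 6, and leaving out a library gave -0.14 to 0.98 for plvapb, -0.20 to 0.43 for cav2 and -0.91 to 0.42 for cavin1b. None of these gave a call of one of the 5 genes. The interaction had 16 calls, 5 with DESeq2, 3 at resolution 1.5, 5 without a gene limit (cavin1b 0.18), 5 without the cells of most UMIs, 26 in sums of at least 20 cells, 0 without the block and 10 to 33 with a library left out. A lone library left in an arm is taken to vary like the other arm. Among the subclusters, cav1 in subcluster 3 (-0.05) turned to 0.095 in sums of at least 20 cells and was -0.25 to 0.095 with a library left out, and plvapb in subcluster 6 (-0.23) was -0.48 to 0.051. Without the block plvapb and cavin1b in subcluster 8 turned to -0.12 and 0.20, and cavin1b in subcluster 11 to 0.063.

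With the replicate number as a block, 88, 27 and 142 genes were called in blood endothelial, brain capillary-like and all endothelial cells, none of them among the 5, for which plvapa over all endothelial cells came closest (1.01, adjusted p = 0.074). Libraries of one number deviated together (r = 0.43 over 10024 genes), which with 2 libraries a genotype is a single value, and nothing in the labels pairs them. Depth limits plvapa most, with 328 UMIs in all kept cells.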

Other observations

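In 7 of 9 classes or unions of classes plvapb was higher in both replicate 2 libraries than in both replicate 1 libraries, whatever the genotype, for example 1738 and 1550 against 464 and 565 CPM in arterial-like cells. The exceptions were venous-like cells and all other cells. For cavin1b the order was the reverse in 8 of the 9, with venous-like cells as the exception. The labels do not say that the replicate number stands for a day or batch, and no test was made.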
